A study of Mus musculus with 12 samples.

Results

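In cancer cells of mouse pancreatic tumors, 147 genes were higher with mutant p53 both where the cells carried it in the genome and where it was added to cells without p53. These genes were chosen by their group means on the arrays described here, out of 18193 genes measured. A gene entered when a probe set with 1 gene symbol lay at least 0.7 higher, on the log2 scale, in each of 3 comparisons: mt-CCs against fl-CCs, fl-CCs with p53 R175H against fl-CCs, and fl-CCs with p53 R175H against fl-CCs with empty vector. Its mean also had to reach 6 in mt-CCs and with p53 R175H, and 9892 genes had a probe set at that level. The rule found 194 probe sets of the 147 genes. It leaves out Y-linked genes, of which 3 would have met it, and 6 genes by name (Abca1, Csf1, Lcn2, Traf1, Nfkbie and Tlr2). Since these 3 comparisons selected the genes, their differences are given below as a description and without a p-value.

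RNA of 12 cultures was read on Affymetrix mouse arrays, 3 for each of 4 groups, which the methods call biological triplicates. The mt-CCs (labelled Trp53_R172H) are a primary line from a tumor of a mouse with Pdx1-Cre, the allele LSL-K-ras G12D/+ and the allele LSL-Trp53 R172H/+. The fl-CCs (Trp53flox) are one from a mouse with the same Cre and K-ras alleles and LSL-Trp53 fl/+. In both, Cre under the pancreatic Pdx1 promoter switches on mutant K-ras and acts on the p53 allele. EV (Trp53_vector) and p53 R175H (Trp53_R175H) are the same fl-CCs transfected with empty vector or with human mutant p53, whose R175H change is the human counterpart of mouse R172H. These transfected cells alone were kept in G418, so p53 R175H differs from fl-CCs in the selection and in p53, whereas EV and p53 R175H were both selected. Each genotype is 1 line, and the p-values below measure the spread between cultures of these lines. The targeted gene was not analysed here, so its level gives no check of the labels.

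p53 is a transcription factor that halts or kills damaged cells. Missense mutants such as R175H lose much of its binding to DNA at its own target genes, accumulate in tumor cells and can change transcription through other factors that they bind, and they are known in pancreatic cancer for cell invasion and metastasis. The members hold secreted signals, complement and plasma proteins, proteases and matrix proteins, lysosomal proteins, membrane transporters and transcription factors. The genes with the largest differences come first, then the secreted, matrix and lysosomal members by role.

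Values are log2 RMA values, so a difference of 1 is a doubling. Values under 5 are called near background, at a limit set for this report without detection calls. If all arrays of the lower group were near background, the text says "at least" and counts from 5 upward. Over the 147 members, mt-CCs exceeded fl-CCs by a median of 1.47 (range 0.70 to 8.10), p53 R175H exceeded fl-CCs by 1.33 (0.70 to 3.34) and p53 R175H exceeded EV by 1.26 (0.70 to 6.74). Over the 9892 genes at that level the medians were 0.01, 0.00 and 0.00. With limma at an adjusted p of 0.05 or less, 147 members were called in mt-CCs against fl-CCs, 144 in p53 R175H against fl-CCs and 146 in p53 R175H against EV, all of them higher, where 25.6%, 14.6% and 19.5% of all genes at that level were called. Every p53 R175H array lay above every EV array in 146 members and above every fl-CC array in 146, and in 145 members the arrays of mt-CCs were all above those of fl-CCs. Shares over all genes at that level were not computed for this order of arrays. The rule used these contrasts, so nothing is read from the calls or from the order.

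The promoter windows of the members show what their start sites hold, from 250 bases before to 50 bases after each annotated start in RefSeq (GRCm38.p6). A window was found for 109 of the 147 genes. On either strand, the AP-1 motif TGANTCA stood in a window of 14 of them (12.8%), against 5.76% of genes at the level of the rule and 8.12% of all coding genes with a window. The NF-κB consensus (GGG, a purine, any pair of bases, a pair of pyrimidines, CC) stood in 18 (16.5%, against 12.4% and 10.5%), and the TEAD motif GGAATG in 26 (23.9%, against 13.7% and 15.5%). The other motifs were CRE (TGACGTCA, 1.83% of the members against 3.67% of genes at that level), the E-box CACGTG (8.26% against 12.4%), an ISRE-like repeat (TTTC, any pair of bases, TTTC, 4.59% against 3.39%) and the SP1 motif GGGCGG (66.1% against 71.9%). These shares are descriptions, a match is not a bound site, and the motifs can overlap one another. The 6 windows below are those with the AP-1 motif among the genes whose array values are given in full further down, printed 5′ to 3′ on the gene's strand, with AP-1 and NF-κB matches in capitals.
Vav3, chr3:109573757-109574056, plus strand: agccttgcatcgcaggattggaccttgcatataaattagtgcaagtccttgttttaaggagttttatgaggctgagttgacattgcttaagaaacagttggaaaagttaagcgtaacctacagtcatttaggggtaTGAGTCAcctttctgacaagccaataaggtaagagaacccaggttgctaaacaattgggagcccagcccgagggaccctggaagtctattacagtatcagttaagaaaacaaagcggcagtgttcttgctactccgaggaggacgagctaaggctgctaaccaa
Ccl9, chr11:83578587-83578886, minus strand: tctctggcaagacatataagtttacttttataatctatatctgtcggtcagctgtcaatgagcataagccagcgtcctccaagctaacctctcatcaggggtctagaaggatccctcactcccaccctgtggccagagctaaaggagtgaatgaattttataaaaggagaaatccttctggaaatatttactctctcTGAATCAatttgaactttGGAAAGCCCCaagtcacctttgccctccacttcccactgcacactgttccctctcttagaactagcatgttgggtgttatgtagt
Selp, chr1:164115014-164115313, plus strand: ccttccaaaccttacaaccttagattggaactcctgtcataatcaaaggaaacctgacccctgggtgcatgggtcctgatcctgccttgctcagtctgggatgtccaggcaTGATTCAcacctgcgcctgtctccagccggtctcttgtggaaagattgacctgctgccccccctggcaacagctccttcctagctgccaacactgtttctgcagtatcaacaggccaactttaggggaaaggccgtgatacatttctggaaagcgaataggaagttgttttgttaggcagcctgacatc
Cp, chr3:19956804-19957103, plus strand: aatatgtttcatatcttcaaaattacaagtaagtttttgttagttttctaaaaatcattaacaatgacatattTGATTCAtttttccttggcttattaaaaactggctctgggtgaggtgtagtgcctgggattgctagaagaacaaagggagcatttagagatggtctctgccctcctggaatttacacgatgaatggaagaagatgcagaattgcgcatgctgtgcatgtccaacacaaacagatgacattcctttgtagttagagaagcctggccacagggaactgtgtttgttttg
Mmp3, chr9:7445572-7445871, plus strand: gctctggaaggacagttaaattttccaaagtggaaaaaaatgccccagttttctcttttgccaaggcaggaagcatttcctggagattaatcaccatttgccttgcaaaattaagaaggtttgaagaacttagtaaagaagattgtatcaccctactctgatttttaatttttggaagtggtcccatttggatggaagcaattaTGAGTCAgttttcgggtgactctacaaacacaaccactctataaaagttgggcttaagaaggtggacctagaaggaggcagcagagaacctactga
Gpnmb, chr6:49036268-49036567, plus strand: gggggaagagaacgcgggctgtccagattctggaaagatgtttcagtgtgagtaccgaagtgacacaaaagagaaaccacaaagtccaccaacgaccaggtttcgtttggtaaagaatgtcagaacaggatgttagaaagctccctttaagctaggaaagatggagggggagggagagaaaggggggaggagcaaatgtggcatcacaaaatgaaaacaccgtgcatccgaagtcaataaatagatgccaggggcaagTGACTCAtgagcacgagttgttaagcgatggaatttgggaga
The window of Ccl9 holds both motifs, the AP-1 match starting 53 bases before the annotated start and the NF-κB match 35 bases before it. In Mmp3 the AP-1 match starts 46 bases before the start. The Vav3 window belongs to 1 of its annotated starts, and which start the cells used was not measured.

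Slc38a1, which encodes a glutamine transporter, led the members by the smallest of its 3 differences. Its log2 values were 5.22, 4.66 and 4.55 in EV, 6.70, 6.20 and 6.31 in fl-CCs, 9.27, 9.14 and 9.33 with p53 R175H and 11.23, 11.10 and 11.08 in mt-CCs. The 4 groups did not overlap and stood in the order EV, fl-CCs, p53 R175H, mt-CCs, which was also the order of 29 other members. That count has no share over all genes beside it and only describes the members. The difference was 4.73 ± 0.17 (SE, n = 3 arrays per group) between mt-CCs and fl-CCs and 4.44 ± 0.17 between p53 R175H and EV. Sdc2, a heparan sulfate proteoglycan of the cell surface, and Cpq, a carboxypeptidase whose gene is its direct neighbor among coding genes on chromosome 15, ran in the same order. Sdc2 read 5.09, 4.98 and 5.34 in EV, 7.46, 7.73 and 7.62 in fl-CCs, 10.06, 10.07 and 10.11 with p53 R175H and 11.19, 11.0 and 11.08 in mt-CCs. Cpq read 3.34, 3.20 and 3.34 in EV, 5.65, 5.91 and 6.23 in fl-CCs, 8.54, 8.49 and 8.53 with p53 R175H and 9.44, 9.14 and 9.28 in mt-CCs. EV was the lowest group in both genes, by more than 2 log2 units under fl-CCs in Sdc2 and by at least 0.93 in Cpq, for which all EV arrays lay near background.

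Twist1, a transcription factor of mesenchymal cells that drives epithelial cells to lose their junctions, gave 4.62, 4.92 and 4.74 in EV, 5.94, 6.20 and 6.16 in fl-CCs, 8.23, 8.35 and 8.41 with p53 R175H and 9.60, 9.36 and 9.29 in mt-CCs. All 4 groups stood apart, with EV under 5, and p53 R175H exceeded EV by at least 3.33 and fl-CCs by 2.23 ± 0.12. For Thbd, the anticoagulant receptor thrombomodulin, the arrays gave 4.35, 4.73 and 4.76 in EV, 6.20, 6.34 and 6.41 in fl-CCs, 8.55, 8.50 and 8.55 with p53 R175H and 8.75, 8.88 and 8.85 in mt-CCs, so both mutant groups lay close together and both groups without p53 lay over 2 units below them. Dsel, an enzyme of dermatan sulfate synthesis, gave 4.40, 4.70 and 5.51 in EV, 6.66, 6.03 and 6.12 in fl-CCs, 8.73, 8.99 and 8.92 with p53 R175H and 9.28, 9.47 and 9.47 in mt-CCs, again with the groups in that order and with the widest spread in EV.

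The guanine nucleotide exchange factor Vav3 read 6.24, 6.43 and 6.38 in EV, 7.32, 5.36 and 6.06 in fl-CCs, 8.72, 8.69 and 8.32 with p53 R175H and 8.74, 8.66 and 8.87 in mt-CCs. Its fl-CC arrays spread over nearly 2 units and overlapped EV, while both mutant groups stood above every other array. Gpr176, an orphan receptor, and Nckap5 also had EV and fl-CCs overlapping. Gpr176 read 4.92, 4.75 and 5.02 in EV, 4.38, 5.33 and 5.51 in fl-CCs, 7.60, 7.45 and 7.70 with p53 R175H and 6.81, 7.14 and 7.05 in mt-CCs, so p53 R175H and not mt-CCs was highest. Arsb, a lysosomal sulfatase, read 5.89, 5.56 and 5.77 in EV, 6.08, 6.17 and 6.04 in fl-CCs, 8.20, 8.28 and 8.30 with p53 R175H and 9.46, 9.52 and 9.68 in mt-CCs. Its EV arrays lay below its fl-CC arrays, with EV minus fl-CCs at -0.35 (limma, adjusted p = 0.0393). That call was lost in other settings, such as without EV replicate 2 (adjusted p = 0.147). A further probe set of Arsb met the rule, with means of 4.55 in EV and 5.47 in fl-CCs.

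Fstl1, a secreted glycoprotein related to follistatin, had the largest difference between mt-CCs and fl-CCs. It read 3.95, 4.48 and 4.68 in EV, 6.24, 3.49 and 4.55 in fl-CCs, 6.33, 6.60 and 6.91 with p53 R175H and 12.90, 12.79 and 12.88 in mt-CCs. The p53 R175H arrays lay above every EV and fl-CC array, though by little over the highest fl-CC array, and over 5 units below every mt-CC array. The fl-CC arrays spread from 3.49 to 6.24, the widest spread of the 4 groups. The others of the 20 leading members were Lhfp, Prrg1, Cldn34c1, B630019K06Rik, Gspt2, Clca3a1, Cxxc4, Zik1 and Snhg14, most of them with EV arrays under 5. Among them Prrg1, a membrane protein with a Gla domain, exceeded EV by at least 3.28 with p53 R175H, and Zik1, a zinc finger protein, by at least 2.04.

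**Figure D1:**
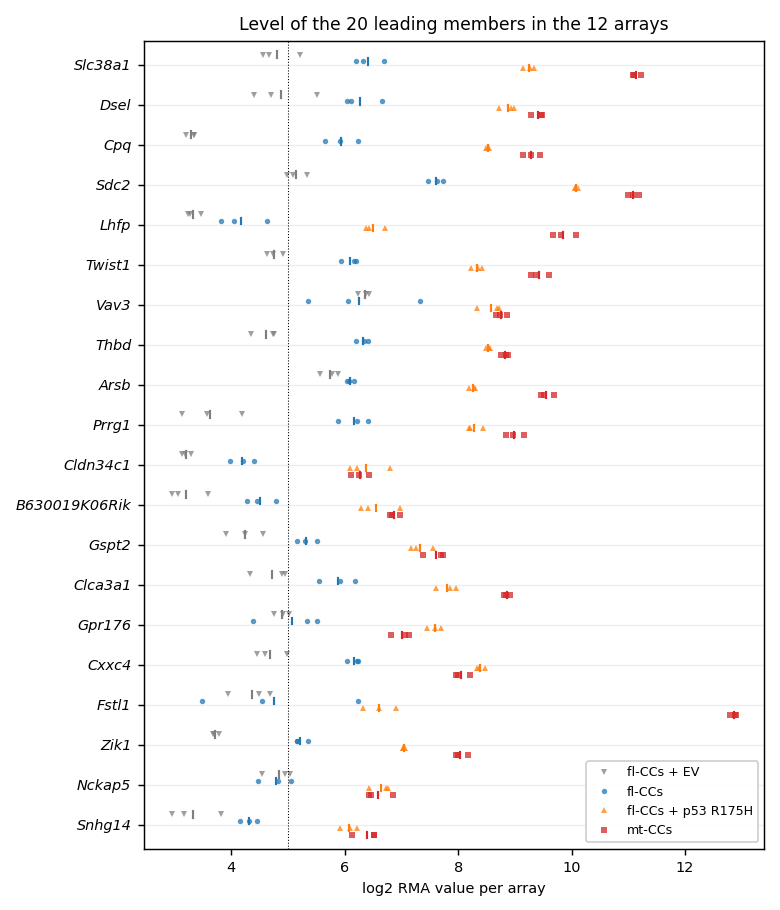
Log2 RMA values of the 20 members with the largest smallest-of-3 differences, 3 arrays per group, with a short line at each group mean and the dotted line at 5, taken as near background. In most genes EV (gray) lies lowest and mt-CCs (red) highest, Fstl1 has mt-CCs far above the rest at a mean of 12.86, and Vav3 has widely spread fl-CC arrays.

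Among secreted signals, Csf2, the growth factor of granulocytes and macrophages, gave 6.05, 5.99 and 6.20 in EV, 6.27, 6.32 and 6.27 in fl-CCs, 6.93, 7.42 and 7.22 with p53 R175H and 6.98, 7.05 and 7.50 in mt-CCs. Both mutant groups overlapped each other and lay above both other groups. The chemokine Ccl9, which attracts myeloid cells, gave 7.60, 7.84 and 7.95 in EV, 6.08, 7.17 and 6.83 in fl-CCs, 9.34, 8.63 and 8.80 with p53 R175H and 9.38, 9.30 and 9.46 in mt-CCs. Here EV stood above all fl-CC arrays and p53 R175H above EV, and 1 p53 R175H array lay among the mt-CC arrays. Cxcl16, a membrane-bound chemokine, gave 8.04, 7.96 and 8.09 in EV, 7.64, 8.43 and 8.36 in fl-CCs, 8.82, 8.92 and 8.88 with p53 R175H and 9.14, 9.15 and 8.90 in mt-CCs. Its differences were 0.92 ± 0.17 in mt-CCs and 0.85 ± 0.17 against EV, and another probe set of the gene differed by 0.86 and 0.82, although by only 0.31 between p53 R175H and fl-CCs. Wnt5a, a secreted WNT that acts largely outside β-catenin signaling, gave 7.82, 7.90 and 8.13 in EV, 7.45, 7.94 and 8.02 in fl-CCs, 8.92, 9.14 and 9.11 with p53 R175H and 10.15, 10.26 and 10.14 in mt-CCs. Both mutant groups stood apart from the others and from each other, and 2 more probe sets of Wnt5a met the rule.

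Saa3, an acute phase protein, read 4.98, 5.35 and 5.39 in EV, 6.45, 5.87 and 6.18 in fl-CCs, 9.03, 9.69 and 9.78 with p53 R175H and 7.53, 7.40 and 7.10 in mt-CCs. The p53 R175H arrays were the highest by more than 1 unit, mt-CCs came next, and no group overlapped another. Selp, the adhesion receptor P-selectin, had the same order, with 4.31, 3.84 and 3.81 in EV, 5.31, 5.54 and 5.47 in fl-CCs, 8.44, 7.66 and 8.24 with p53 R175H and 6.09, 6.41 and 6.27 in mt-CCs. C1s1 and C1ra, which encode the C1s and C1r proteases of complement and are direct neighbors on chromosome 6, followed EV, fl-CCs and then both mutant groups. C1s1 read 4.62, 4.70 and 4.70 in EV, 8.03, 7.84 and 8.23 in fl-CCs, 9.74, 9.70 and 9.75 with p53 R175H and 9.81, 9.84 and 10.08 in mt-CCs, so p53 R175H exceeded EV by at least 4.73 but fl-CCs by only 1.70 ± 0.11. C1ra read 5.34, 4.86 and 5.08 in EV, 6.75, 6.71 and 6.79 in fl-CCs, 7.56, 7.93 and 7.78 with p53 R175H and 8.36, 7.99 and 8.18 in mt-CCs. For Cp, the copper carrier ceruloplasmin, the probe set of the rule read 9.20, 9.16 and 9.19 in EV, 8.58, 9.04 and 9.13 in fl-CCs, 9.80, 9.98 and 10.14 with p53 R175H and 9.83, 9.86 and 10.01 in mt-CCs, yet 5 brighter probe sets of Cp lay 0.18 to 0.41 lower in mt-CCs than in fl-CCs, so the endogenous difference of Cp depended on the probe set. With p53 R175H these 5 differed from fl-CCs by only -0.03 to 0.38, and from EV by 0.95 to 1.07. The difference between p53 R175H and fl-CCs thus also depended on the probe set. Irf9, a part of the interferon-activated factor ISGF3, differed by 0.99 ± 0.21 in mt-CCs and by 0.98 ± 0.21 against EV, where its group means were 6.42 in EV, 6.37 in fl-CCs, 7.40 with p53 R175H and 7.36 in mt-CCs.

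The proteases Mmp3, Mmp19, Adamts4 and Bmp1 and the metalloproteinase inhibitor Timp1 were members. Mmp3, which degrades many matrix proteins, gave 5.09, 4.35 and 5.31 in EV, 5.58, 6.51 and 6.33 in fl-CCs, 7.30, 6.58 and 6.87 with p53 R175H and 7.75, 7.65 and 7.65 in mt-CCs. The mt-CC arrays were highest and the p53 R175H arrays lay above every EV and fl-CC array, though by little over the highest fl-CC array. For Mmp19 the arrays gave 6.13, 6.09 and 6.50 in EV, 5.84, 6.24 and 6.49 in fl-CCs, 7.29, 7.27 and 7.07 with p53 R175H and 8.70, 8.73 and 8.77 in mt-CCs, with mt-CCs more than 1 unit above all others. A second probe set of Mmp19 differed by 2.48 in mt-CCs but by only 0.26 and 0.15 with p53 R175H against fl-CCs and EV, so its difference of that size in the transfected cells was seen in 1 probe set alone. Timp1 gave 7.75, 7.92 and 8.10 in EV, 7.71, 7.74 and 7.79 in fl-CCs, 8.74, 8.56 and 8.90 with p53 R175H and 9.02, 9.02 and 9.0 in mt-CCs, and both mutant groups lay above both others. Adamts4, an aggrecanase, had group means of 7.59 in EV, 7.36 in fl-CCs, 8.55 with p53 R175H and 8.71 in mt-CCs. A dimmer probe set of Adamts4 was lower in mt-CCs, at 5.61 against 6.56 in fl-CCs, and higher by 1.02 and 0.79 with p53 R175H than in fl-CCs and EV, so the endogenous direction of Adamts4 depended on the probe set. Bmp1, which processes procollagens, had group means of 7.01 in EV, 6.80 in fl-CCs, 7.72 with p53 R175H and 8.19 in mt-CCs.

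Matrix and adhesion members were Thbs1, the matricellular protein thrombospondin 1, Itgav, the integrin αv subunit, Ccn5, a CCN family protein, and Sulf2, which trims sulfates from heparan sulfate outside the cell. Thbs1 read 7.85, 7.75 and 7.85 in EV, 6.68, 7.44 and 7.65 in fl-CCs, 9.15, 8.63 and 8.68 with p53 R175H and 8.61, 8.29 and 8.58 in mt-CCs, and its p53 R175H arrays reached above the mt-CC arrays. Itgav read 9.98, 9.92 and 9.97 in EV, 9.66, 10.01 and 10.04 in fl-CCs, 10.90, 10.53 and 10.80 with p53 R175H and 10.72, 10.48 and 10.68 in mt-CCs, with both mutant groups overlapping. A further probe set of Itgav met the rule, and a brighter one, at 11.81 in fl-CCs, differed by only 0.26 in mt-CCs and by 0.51 and 0.37 with p53 R175H against fl-CCs and EV. Ccn5 lay low, between 4.91 in EV and 6.31 in mt-CCs as group means. Sulf2 read 4.32, 4.14 and 3.79 in EV, 5.88, 5.46 and 5.58 in fl-CCs, 6.60, 6.56 and 6.90 with p53 R175H and 8.46, 8.23 and 8.64 in mt-CCs with the probe set of the rule. A brighter probe set of Sulf2, at 10.06 in fl-CCs and 10.15 in mt-CCs, differed by only 0.09 there and by 0.56 between p53 R175H and EV.

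Lysosomal members were Lamp2, a protein of the lysosomal membrane, Atp6ap1, an accessory subunit of the proton pump, and Gpnmb, a glycoprotein of lysosomes and melanosomes, beside Arsb above. Lamp2 gave 10.01, 9.97 and 10.08 in EV, 9.42, 9.93 and 9.98 in fl-CCs, 10.90, 10.78 and 10.83 with p53 R175H and 11.04, 11.04 and 11.11 in mt-CCs, with both mutant groups above both others, and a further probe set met the rule while 2 brighter ones differed by 0.33 and 0.16 in mt-CCs. Atp6ap1 gave 9.58, 9.67 and 9.94 in EV, 9.49, 9.72 and 9.52 in fl-CCs, 10.56, 10.57 and 10.46 with p53 R175H and 10.70, 10.42 and 10.54 in mt-CCs. Gpnmb gave 5.28, 6.02 and 5.32 in EV, 5.70, 5.70 and 5.19 in fl-CCs, 6.0, 6.34 and 6.67 with p53 R175H and 10.75, 10.85 and 10.73 in mt-CCs. For Gpnmb the mt-CC arrays stood over 4 units above all others, whereas the lowest p53 R175H array lay just below the highest EV array. Ets1, a transcription factor on the list of partners and targets reported for mutant p53, gave 8.85, 9.04 and 9.07 in EV, 8.93, 8.94 and 8.91 in fl-CCs, 10.35, 10.02 and 9.86 with p53 R175H and 9.80, 9.91 and 9.87 in mt-CCs, and all 4 of its probe sets met the rule.

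**Figure D2:**
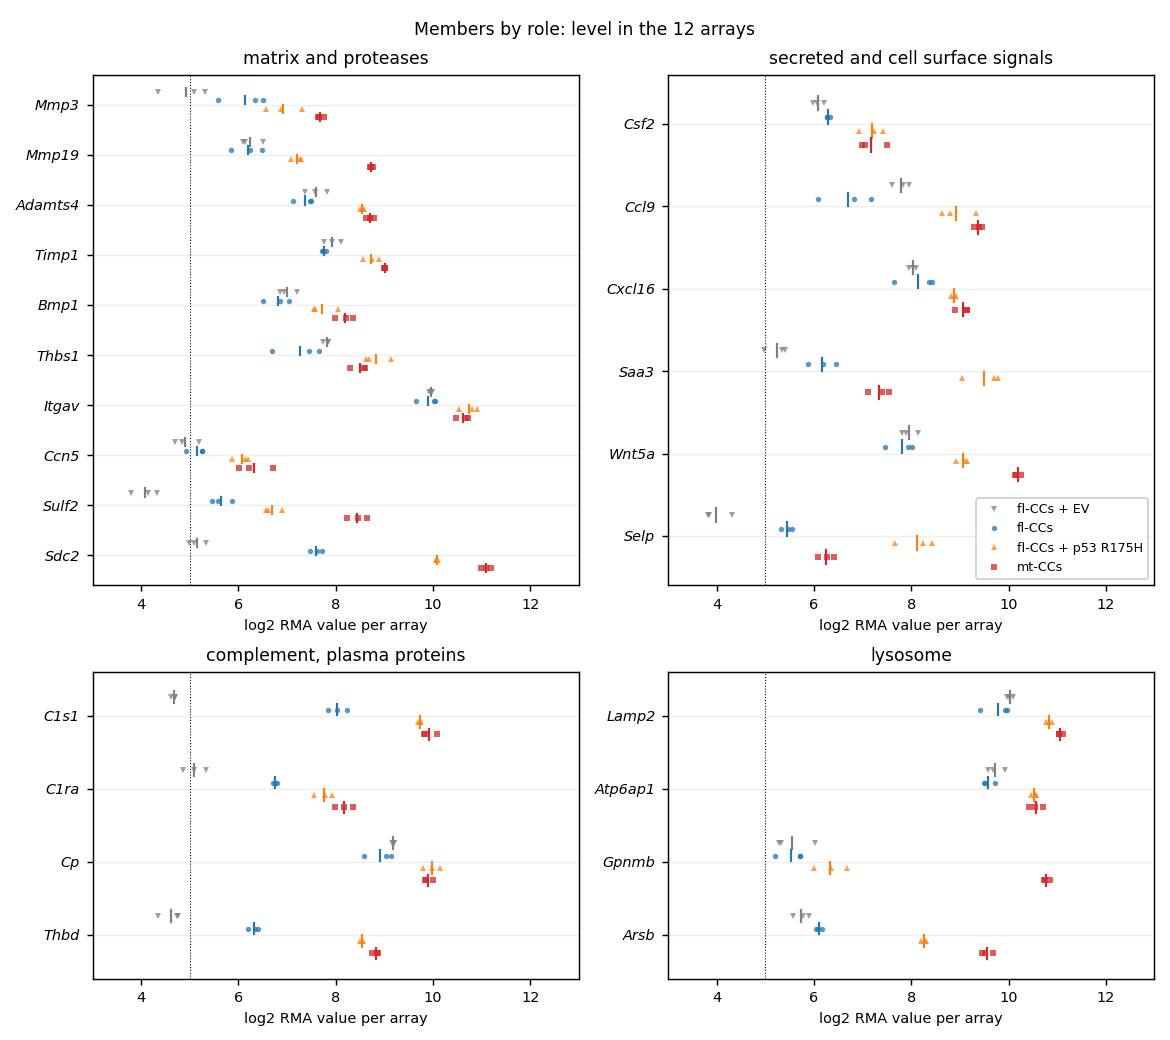
Log2 RMA values of members by role, 3 arrays per group, with a short line at each group mean and the dotted line at 5. Both mutant groups lie to the right of EV and fl-CCs in nearly every gene, Saa3 and Selp reach their highest values with p53 R175H, and Gpnmb has mt-CCs at a mean of 10.78 far above the other groups.

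The 4 groups allow 3 further comparisons that the rule did not contain: EV against fl-CCs, mt-CCs against p53 R175H, and the difference between the endogenous and the transfected difference. Each can be written as a difference of 2 contrasts of the rule. The rule takes a gene more readily where EV or fl-CCs read low, so the member counts below support nothing by themselves. Shares among all genes at that level are given beside the calls of each comparison.

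EV and fl-CCs both lack p53, yet 48 members were lower in EV than in fl-CCs and 19 were higher (limma, 32.7% and 12.9%), where 10.5% and 11% of all genes at that level were called lower and higher. The median difference over the members was -0.13, from -3.57 to 1.58. Peg3, an imprinted zinc finger gene, read 5.62, 5.32 and 6.69 in EV, 9.49, 9.38 and 9.46 in fl-CCs, 12.71, 12.51 and 12.62 with p53 R175H and 10.50, 10.44 and 10.63 in mt-CCs. EV differed from fl-CCs by -3.57 ± 0.26 (adjusted p = 4.72e-06), and every p53 R175H array lay about 3 units above fl-CCs. C1s1 fell by at least 3.04 in EV, from 8.04 in fl-CCs (adjusted p = 1.17e-08), Tmlhe, an enzyme of carnitine synthesis, differed by -3.37 ± 0.19 (adjusted p = 6.91e-07), Slc36a4, an amino acid transporter, was lower by at least 1.42 (adjusted p = 4.24e-07) and AI467606 differed by -2.79 ± 0.24 (adjusted p = 1.89e-05). The largest differences in the other direction were those of Gpx8, a peroxidase of the endoplasmic reticulum (1.58 ± 0.14, adjusted p = 2.15e-05), Fam107a (1.54 ± 0.29, adjusted p = 0.0045), the receptor phosphatase Ptprg (1.37 ± 0.11, adjusted p = 8.33e-06), Gas1 (1.28 ± 0.33) and Ebf4 (1.14 ± 0.23, adjusted p = 0.006). The call of Gas1 (adjusted p = 0.0261) was lost without EV replicate 1 (adjusted p = 0.0555) and without EV replicate 2 (adjusted p = 0.0993), and leaving out either of these arrays took the 19 members higher in EV to 12.

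EV had the lowest mean of the 4 groups in 86 members and fl-CCs in 61, and all EV arrays lay under 5 in 29 members against 7 for fl-CCs. Under the rule only EV or fl-CCs could be lowest, and shares over all genes at that level were not computed. These counts describe the members only. In the 86 members, a part of the difference between p53 R175H and EV lay below the level of the parental fl-CCs. That part, the distance from EV up to fl-CCs as a share of the distance from EV to p53 R175H, had a median of 11.4% over the members, was 50% or more in 25 and was 0 in 61. With EV taken at 5 where all its arrays lay near background, the median was 4.04% and 16 members had 50% or more. The rule requires p53 R175H to exceed both EV and fl-CCs, which limits this share. It was not computed over other genes and describes the members only. The share was 79.5% in Tmlhe and at least 64.2% in C1s1. Leading members with no such part were Vav3, at 0.10 ± 0.35 between EV and fl-CCs (adjusted p = 0.907), and Nckap5, at 0.06 ± 0.18 (adjusted p = 0.89), and their values leave differences of either sign possible.

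**Figure D3:**
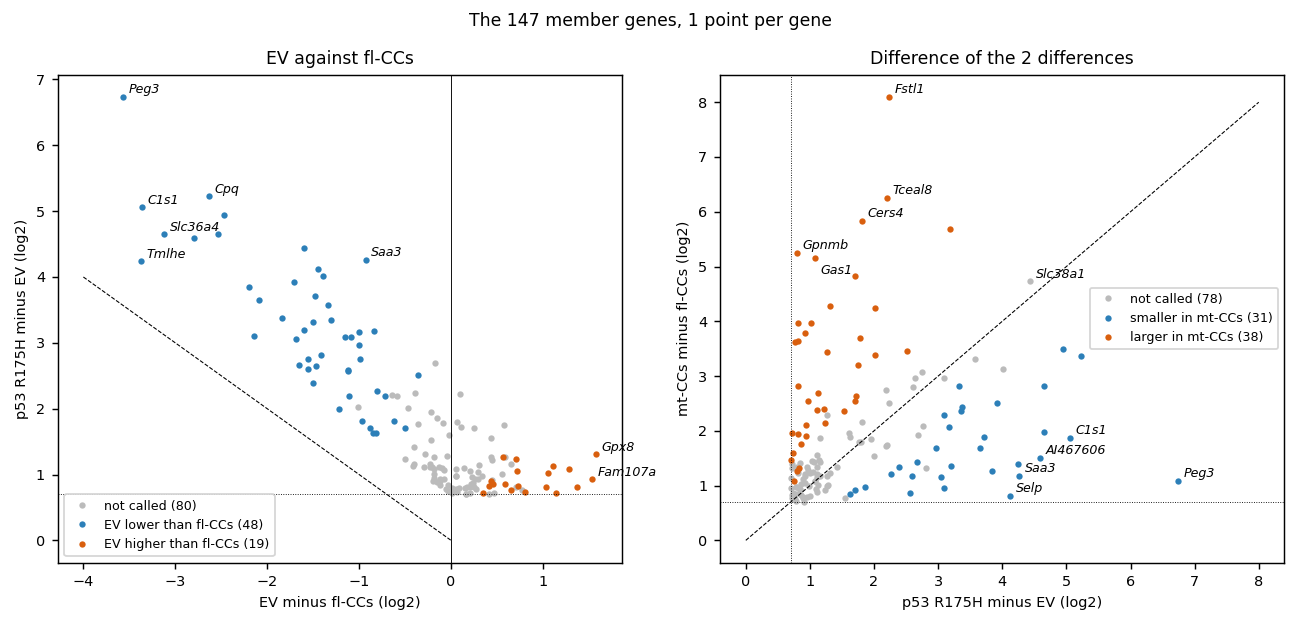
Each point is 1 of the 147 members, on log2 scales. On the left, p53 R175H minus EV is plotted against EV minus fl-CCs, where the dashed line is equality of p53 R175H and fl-CCs and the 48 genes lower in EV reach the largest values, led by Peg3 at 6.74. On the right, mt-CCs minus fl-CCs is plotted against p53 R175H minus EV with the dashed line at equal differences, and 38 genes are called above it and 31 below it. Dotted lines mark 0.7.

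mt-CCs read higher than p53 R175H in 106 members and lower in 41 by their means, with a median difference of 0.26. In the test, 54 members (36.7%) were higher in mt-CCs and 11 (7.48%) lower, where 27.4% and 25.8% of all genes at that level were called. Besides Fstl1 and Gpnmb, the largest differences toward mt-CCs were those of Tceal8 and Cers4. Tceal8, of the TCEAL family near transcription elongation factors, read 3.39, 4.26 and 3.76 in EV, 4.49, 4.08 and 4.60 in fl-CCs, 5.91, 6.05 and 6.05 with p53 R175H and 10.78, 10.55 and 10.62 in mt-CCs. Cers4, a ceramide synthase, read 4.83, 4.90 and 5.22 in EV, 5.77, 5.51 and 5.55 in fl-CCs, 6.68, 6.92 and 6.80 with p53 R175H and 11.62, 11.38 and 11.34 in mt-CCs. In both genes mt-CCs stood over 4 units above p53 R175H (adjusted p = 2.69e-09 and 7.01e-11) and every p53 R175H array lay above every array without p53. Sting1, the adaptor of cytosolic DNA sensing, was higher in mt-CCs by 3.61 ± 0.15 (adjusted p = 2.18e-09). In the other direction stood Saa3 with -2.16 ± 0.21 (adjusted p = 6.47e-06), Peg3 with -2.09 ± 0.26 (adjusted p = 4.83e-05), Selp with -1.86 ± 0.19 (adjusted p = 9.94e-06), Fam107a with -1.42 ± 0.29 (adjusted p = 0.00221) and Lrp11 with -1.20 ± 0.21 (adjusted p = 0.000646). The test was not passed by Csf2, with a difference of -0.01 ± 0.15 (adjusted p = 0.956), nor by Irf9 (-0.04 ± 0.21) or Atp6ap1 (0.03 ± 0.11). In 52 members neither EV against fl-CCs nor mt-CCs against p53 R175H passed the test. The matching share over all genes at that level was not computed, and a test not passed does not show equal levels.

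The endogenous difference, mt-CCs minus fl-CCs, was larger than the transfected one, p53 R175H minus EV, in 38 members (25.9%) and smaller in 31 (21.1%) by a test of the difference between them, where 22.1% and 22.3% of all genes at that level passed. Fstl1 was higher by 8.10 ± 0.50 in the endogenous setting and by at least 1.61 in the transfected setting (difference of the differences 5.86 ± 0.71, adjusted p = 5.65e-05). Gpnmb differed by 5.25 ± 0.22 and 0.79 ± 0.22 (adjusted p of the difference between them = 4.66e-07). Gas1, which inhibits growth and assists hedgehog reception, read 5.29, 5.83 and 5.13 in EV, 3.19, 4.59 and 4.64 in fl-CCs, 6.54, 6.14 and 6.83 with p53 R175H and 9.38, 9.27 and 9.25 in mt-CCs, so all fl-CC arrays were near background and the endogenous difference was at least 4.30, against 1.08 ± 0.33 in the transfected setting (adjusted p of the difference between them = 3.9e-05). Peg3 went the other way, with 1.08 ± 0.26 and 6.74 ± 0.26 (adjusted p of the difference between them = 2.42e-07). The other genes with a larger transfected difference included Slc36a4 and Cpq, in which EV had the lowest arrays, and Cxxc4, an inhibitor of WNT signaling, with -1.82 ± 0.18 (adjusted p = 1.33e-05). Slc38a1 had a difference of the differences of 0.30 ± 0.24, which did not pass the test (adjusted p = 0.43). Where all arrays of EV or fl-CCs lay near background, as in EV for Fstl1, Slc36a4, Cpq and Cxxc4 and in fl-CCs for Gas1, the fitted difference of the differences is not a bound.

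The members were unevenly spread over the chromosomes. Chromosome X held 21 of them (14.3%), with 2.92% of genes at the level of the rule, and chromosome 2 held 21 (14.3%), with 8.18% of those genes. Chromosome 14 held 10 (6.80% against 3.28%) and chromosome 19 none. Over all genes at that level, members or not, the median of p53 R175H minus EV was 0.45 on chromosome 2 and 0.39 on chromosome X, the highest of all chromosomes but Y, and EV minus fl-CCs was -0.27 and -0.11 there. The 3 Y-linked genes had medians of -2.30 between EV and fl-CCs and 4.06 between p53 R175H and EV. When each difference was taken relative to the median of its chromosome, a choice made after these values were seen, 115 of the 147 genes still met the rule, among them 8 of 21 on chromosome X, 9 of 21 on chromosome 2 and 9 of 10 on chromosome 14. Of the 105 members on other chromosomes than 2 and X, 38 were lower in EV than in fl-CCs and 14 higher, where 8.11% and 11.8% of all genes there were called. DNA copy number was not measured in these data, and its part in these differences was not tested. Members on X include Timp1, Lamp2, Atp6ap1, Tmlhe, Tceal8 and Prrg1, and members on chromosome 2 include Thbd, Gpr176, Sulf2, Thbs1, Ccn5, Itgav and Ebf4. The gene models of Timp1 and Syn1, both members, overlap on X, and in 3 more pairs of members, Thbs1 with Gpr176, Usp11 with Syn1 and Dnase1l1 with Atp6ap1, 1 coding gene lay between.

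**Figure D4:**
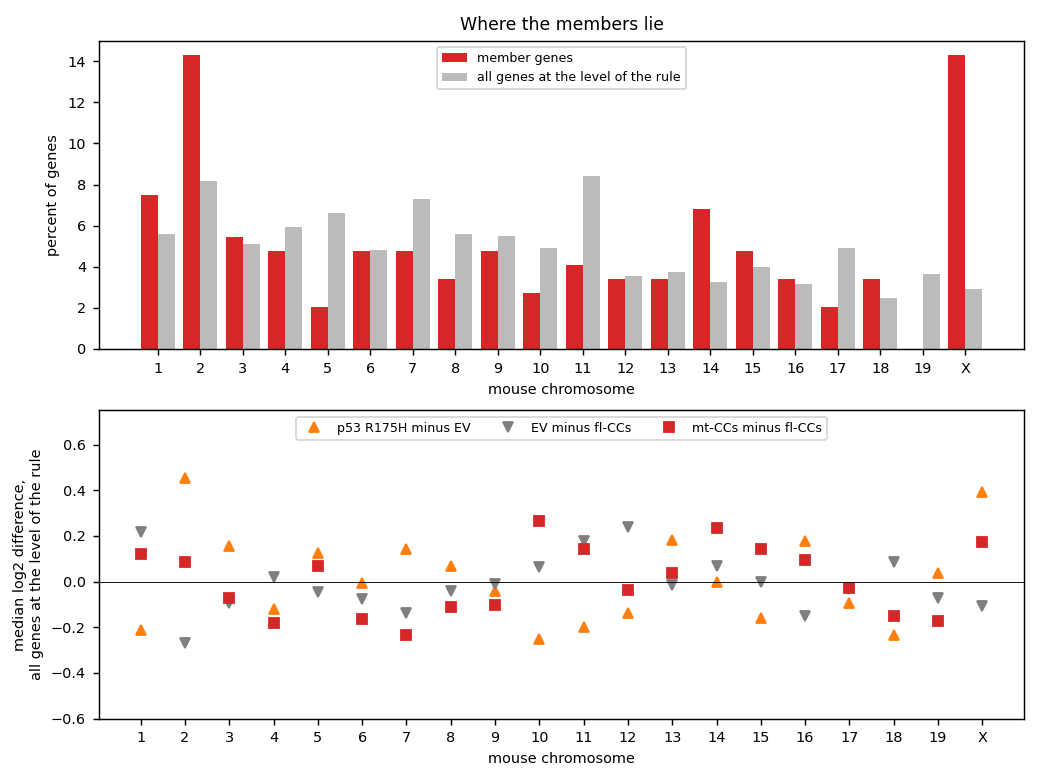
Above, the percent of the 147 members (red) and of all genes at the level of the rule (gray) on each chromosome, where X and 2 each hold 14.3% of the members. Below, the median log2 difference of all genes at that level per chromosome in 3 comparisons, where p53 R175H minus EV is highest on 2 and X.

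A gene was represented by 1 probe set. Of the members, 46 had no other probe set and 101 had 208 more. Of these, 116 reached the level of the rule and 101 of the 116 had all 3 differences above 0, while 47 met the whole rule. The 15 that did not have all 3 above 0 included the 5 of Cp and 2 of Ptprg, whose p53 R175H minus EV differences were -0.10 and -0.12. The other probe set of Fstl1 had a mean of 3.93 with p53 R175H, near background, against 10.41 in mt-CCs. There p53 R175H differed by only 0.21 from fl-CCs and by 0.33 from EV. The other probe sets of Gas1 differed by only 0.27 and 0.18 between p53 R175H and EV. A brighter probe set of Cxxc4 differed by 1.79 between p53 R175H and fl-CCs but by 0.34 in mt-CCs. The members just inside the threshold were Sat1, with a smallest difference of 0.701, and Erap1 and Rcan2, both with 0.703. Just outside lay a probe set each of Fbxo32 (0.6998), Ang (0.699) and Gpr137b-ps (0.695), and Fbxo32 and Ang entered through other probe sets.

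Of 16 gene lists with 681 measured genes, 22 members lay on 1 or more. The lists were written for this work with earlier results of these data known. Over all genes, 18.3% were called higher in mt-CCs and 17.7% lower, relative to fl-CCs, and 13% higher and 12.1% lower with p53 R175H than with EV. Against fl-CCs, shares for p53 R175H and EV were computed only at the level of the rule. They were 14.6% higher and 13.1% lower with p53 R175H, and 11% and 10.5% in EV. Of 36 cytokines and chemokines, among them Csf1, which the rule leaves out by name, 15 were higher and 5 lower in mt-CCs. With p53 R175H 13 were higher and none lower. Ccl2, which attracts monocytes, was higher by 4.69 ± 0.20 in mt-CCs and by 1.42 ± 0.20 with p53 R175H against EV. With p53 R175H against fl-CCs it differed by only 0.28 and so missed the rule. Ccl20 was lower by 3.17 in mt-CCs but higher by 0.90 ± 0.11 with p53 R175H than with EV. From fl-CCs, Ccl20 differed by only 0.15 with p53 R175H and by -0.75 in EV. Of 29 acute phase, complement and innate genes, among them Lcn2, also left out by name, 10 were higher and 5 lower in mt-CCs and 15 higher and 1 lower with p53 R175H. Of 41 NF-κB pathway genes, none of which was a member and 3 of which the rule leaves out by name, 15 were higher and 6 lower in mt-CCs and 16 higher and 4 lower with p53 R175H than with EV, with the receptor Tlr4 at 2.45 ± 0.15 and 1.07 ± 0.15 and the inhibitor Nfkbia at 0.83 ± 0.10 and 0.49 ± 0.10. Against fl-CCs, 8 of the NF-κB genes were higher and 3 lower with p53 R175H, and 2 higher and 5 lower in EV. Tlr4 differed from fl-CCs by -0.23 with p53 R175H and by -1.30 in EV, and Nfkbia by 0.17 and -0.32. Of 40 lysosome and autophagy genes, 23 were higher and 3 lower in mt-CCs and 13 higher and 5 lower with p53 R175H, among them Tfe3, an X-linked transcription factor of lysosomal genes, at 0.72 ± 0.08 and 0.81 ± 0.08.

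The counts of the other lists are given for each setting, and those with p53 R175H are against EV. No test compared the settings over a list. Of 45 interferon-stimulated genes 22 were higher and 6 lower in mt-CCs, but 6 higher and 10 lower with p53 R175H. Proteases and inhibitors (44 genes) had 19 higher and 15 lower in mt-CCs and 13 and 8 with p53 R175H, matrix and adhesion genes (60) had 28 and 11, then 13 and 13, and growth factors and receptors (69) had 32 and 21, then 11 and 16. Genes reported for mutant p53 (48) had 13 higher and 15 lower in mt-CCs and 11 and 9 with p53 R175H, and wild-type p53 targets (46, with Sulf2 as a member) had 13 and 12, then 5 and 13. No member was on the remaining lists, but the rule leaves out Abca1, a gene of the sterol and lipid list, by name. Hypoxia and glycolysis genes (41) had 10 higher and 16 lower in mt-CCs and none higher and 26 lower with p53 R175H, such as the lactate exporter Slc16a3 with -1.92 ± 0.17 and -2.32 ± 0.17. Early response genes (42) had 10 and 13, then 2 and 17, sterol and lipid genes (43) 8 and 18, then 7 and 19, NRF2 genes (43) 9 and 21, then 13 and 10, unfolded protein response genes (42) 13 and 8, then 6 and 11, and cell cycle genes (47) 12 and 11, then 11 and 4. Against fl-CCs, p53 R175H had 1 NRF2 gene higher and 14 lower, and no cell cycle gene higher and 20 lower. EV against fl-CCs had 1 NRF2 gene higher and 15 lower, and 2 cell cycle genes higher and 26 lower. Nqo1, an NRF2 target, was higher in both settings (1.40 ± 0.20 and 1.92 ± 0.20) but not by 0.7 over fl-CCs with p53 R175H.

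**Figure D5:**
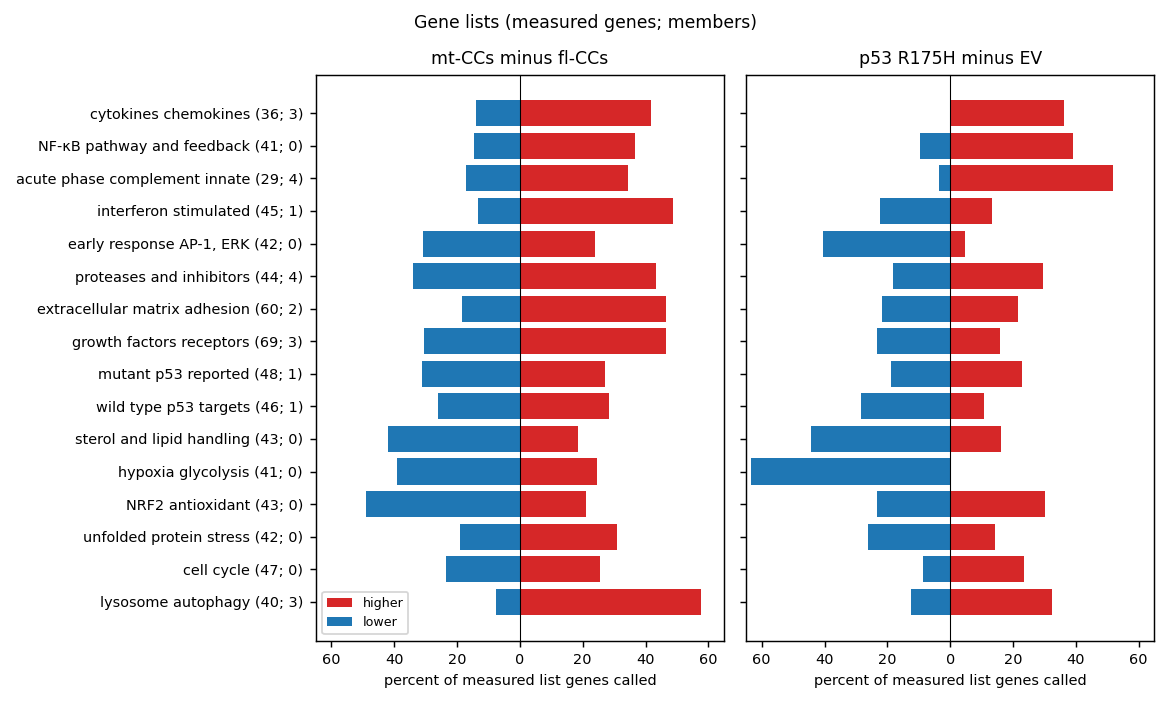
Percent of the measured genes of each list called higher (red, to the right) or lower (blue, to the left) by limma in mt-CCs minus fl-CCs and in p53 R175H minus EV, with the number of measured genes and of members in brackets. With p53 R175H no cytokine gene was lower and no hypoxia gene was higher, and the lysosome list had 23 of 40 genes higher in mt-CCs.

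Cell type markers moved in the endogenous setting. The summed linear level of 16 epithelial markers lay, as log2, at 15.0 to 15.1 in mt-CCs, 15.89 to 15.94 in fl-CCs, 15.84 to 15.89 in EV and 15.71 to 15.76 with p53 R175H, and 11 of them were lower and 2 higher in mt-CCs than fl-CCs, against 3 lower and 3 higher with p53 R175H than with EV. The sum of 15 fibroblast markers lay at 14.91 to 14.95 in mt-CCs, 14.37 to 14.40 in fl-CCs, 14.32 to 14.33 in EV and 14.31 to 14.38 with p53 R175H, with 8 higher and 1 lower in mt-CCs and 2 higher and none lower with p53 R175H. Of the fibroblast markers 5 lay under 5 in every array, as did 9 of 12 leukocyte and 8 of 10 endothelial markers. No member was one of these markers. Their part in the members' differences was not tested. On bulk arrays, a change in the kind of cells and a change in RNA per cell cannot be told apart.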

How the data were processed

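The authors extracted RNA, hybridized labeled cDNA to Affymetrix mouse GeneChips and normalized by RMA (per the submitters' processing notes, which give no version), and the deposited values are log2 RMA values. Genome build: not given in the sources used here. The members and lists were chosen with earlier results of these data known. Of 45101 probe sets, 64 controls were dropped and 45037 fitted with limma 3.58.1 (R 4.3.3, lmFit and eBayes) on 4 group means over 12 arrays, with Benjamini-Hochberg adjustment and calls at 0.05 with no fold limit. The fit was tested on simulated data. The methods name Partek for this step. Gene names came from the platform annotation: 34945 had 1 symbol, 932 several and 9160 none, and 34741 were matched by gene number to RefSeq (GRCm38.p6). A gene's probe set was, of those meeting the rule, the one with the highest mean. For list genes and all genes it was the probe set with the highest mean. Genes named are the 20 with the largest smallest-of-3 differences, up to 4 members per list, the 5 highest and 5 lowest in each further comparison, the 3 on each side of the threshold and up to 3 other genes per list that were called in both settings. The member names given for the chromosomes and the neighboring pairs (Usp11, Syn1 and Dnase1l1) were chosen after their values were seen. Alternatives were other fits, filters, normalizations and thresholds, leaving out each array, and the replicate block. Same-numbered arrays correlated at -0.09 to 0.06 in their deviations, so the numbers did not pair the samples. The number of arrays limits the precision.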

Additional observations from a re-analysis of the deposited data

Results flagged for a closer look

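The difference between mt-CCs and fl-CCs and that between p53 R175H and EV differed by a test of the difference itself (limma) in 38 members (25.9%) that were larger and 31 (21.1%) that were smaller in the endogenous setting. Among all genes at the level of the rule 22.1% were larger and 22.3% smaller, so nothing is read from these counts. The difference of the differences was 5.86 for Fstl1, 4.45 for Gpnmb, 4.08 for Gas1, 4.06 for Tceal8 and 4.02 for Cers4. It was -5.66 for Peg3, -3.31 for Selp, -3.19 for C1s1, -3.09 for AI467606 and -3.08 for Saa3. Where a group without mutant p53 lay near background, as fl-CCs did for Gas1 and Tceal8 and EV did for C1s1, Selp, Tceal8 and Fstl1, these values are not bounds. With 3 arrays per group, single arrays were not tested as outliers.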

How the results depend on the processing

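The number of members depended on the thresholds. It was 270 with a difference of 0.5, 77 with 1 and 97 with a minimum mean of 7, against 147, and 141 to 154 when each array was left out in turn. It stayed within 1.5 times of 147 with a minimum mean of 5 (180), group medians (156, of which 140 shared), quantile normalization (147), without the comparison of p53 R175H with fl-CCs (209) and relative to the chromosome medians (131, of which 115 shared). The 19 members higher in EV than in fl-CCs fell to 12 when only these groups entered the fit, and to 12 without EV replicate 1 or EV replicate 2. With each array left out, members numbered 12 to 19 higher and 44 to 48 lower in EV, 46 to 56 higher and 10 to 14 lower in mt-CCs than with p53 R175H, and 33 to 37 larger and 30 to 32 smaller in the difference of differences. With the replicate number as a block they numbered 18 and 47, 52 and 13, and 36 and 33. No other fit or filter moved one of these counts by over 1.5 times. Of 168 results for named genes, 33 crossed the threshold in at least 1 setting and 0 reversed.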
